A study of Arabidopsis thaliana and Ginkgo biloba and Brassica rapa with 14 samples.

Results

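The leucine tRNAs comprised every isodecoder whose name starts with Leu in the deposited tables, where an isodecoder is a group of identical or highly similar tRNA sequences with the same anticodon, collapsed into 1 consensus sequence. There were 11 of them among 100 isodecoders of A. thaliana, encoded by 46 of 687 listed genes, and 5 of the 59 sites in the methylation table were leucine sites. Of the 11 isodecoders, 2 were of chloroplast origin, 8 were nuclear and 1 was of mixed origin. The mixed isodecoder has listed genes in both the chloroplast and the nuclear genome, whose sequences were not compared with its consensus. None of the 11 isodecoders was listed as mitochondrial. A number after the bracket, as in Leu(AAG)1, marks a further consensus with the same anticodon.

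Abundance was measured in 1 RNA-seq library of wild type A. thaliana seedlings at 10 days after germination, from RNA cut from a gel to enrich tRNAs. Methylation was measured by RNA bisulfite sequencing (RBS-seq), in which unmethylated cytosines are read as thymine and 5-methylcytosine (m5C) is still read as cytosine. The paper calls its sites candidates, because some other modified cytosines also resist the conversion. Methylated therefore means not converted throughout. There were 3 RBS-seq libraries of wild type A. thaliana seedlings of the same age, and 1 library each of wild type Brassica rapa leaf, Triticum durum flag leaf, Caulerpa taxifolia frond, Nannochloropsis oculata cells and Ginkgo biloba leaf. The methods of the study name shoot apexes for B. rapa and G. biloba where the sample labels name leaf. C. taxifolia is a macroalga and N. oculata a single-celled alga, and since the tissue changed with the species, the 2 cannot be told apart. The methylation table gives 1 percentage per site and species, which for A. thaliana is the authors' mean, and abundance has no replicate, so that no difference below could be checked against the spread between replicates. Seedlings were extracted whole, so more cells or plastids of a kind and more RNA per cell cannot be told apart.

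A tRNA carries an amino acid to the ribosome and reads codons through its anticodon, at structural positions 34 to 36. Leucine and serine tRNAs, and some tyrosine tRNAs such as those of plastids, stand apart from most others in having a long variable arm. This arm is a stem and loop between the anticodon stem and the T stem. The chloroplast translates its own messages with tRNAs from its own genome, while the nuclear tRNAs serve the cytosol, and plant mitochondria import leucine tRNAs of nuclear origin. Structural positions 48 and 49 lie where the variable region meets the T stem and are methylated by TRM4 enzymes, and in yeast and human the first anticodon base of tRNA-Leu(CAA) is methylated by enzymes of the same family.

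The consensus sequences that carry the comparison of origins are given here, from the deposited TAIR10 reference list, with the anticodon and structural bases 48 and 49 in capitals.
Leu(CAA) chloroplast: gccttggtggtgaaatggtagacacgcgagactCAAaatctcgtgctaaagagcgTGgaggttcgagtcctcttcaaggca
Leu(CAA) nuclear: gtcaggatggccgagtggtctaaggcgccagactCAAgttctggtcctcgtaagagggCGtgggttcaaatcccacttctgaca
Leu(TAA) chloroplast: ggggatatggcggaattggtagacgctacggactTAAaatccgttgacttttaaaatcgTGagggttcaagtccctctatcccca
Leu(TAA) nuclear: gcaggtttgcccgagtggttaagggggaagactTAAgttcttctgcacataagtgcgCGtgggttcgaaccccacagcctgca
Leu(TAG) mixed: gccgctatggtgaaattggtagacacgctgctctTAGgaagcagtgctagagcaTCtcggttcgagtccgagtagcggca
Leu(TAG) nuclear: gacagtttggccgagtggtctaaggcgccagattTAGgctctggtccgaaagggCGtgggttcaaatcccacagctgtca
Leu(CAG) nuclear: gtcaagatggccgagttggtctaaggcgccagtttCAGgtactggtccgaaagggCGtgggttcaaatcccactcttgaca
Bases 48 and 49 were TG in both chloroplast sequences, TC in the mixed sequence and CG in the 4 nuclear sequences shown. The 2 nuclear sequences with a long variable region that are not shown, Leu(AAG) and Leu(TAA)1, also had CG there.

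The chloroplast leucine tRNAs were the most abundant tRNAs of the library. Chloroplast Leu(CAA), which reads the UUG codon, was listed at 90090 reads per 1000000 reads (RPM), the highest value of all 100 isodecoders, and chloroplast Leu(TAA), which reads UUA, came second at 55576 RPM. Mixed Leu(TAG), which reads codons that start with CU, ranked 4 of all at 9122 RPM. The RPM values rose in even steps, and with the smallest value of 0.34 RPM taken as 1 read, all 87 values above 0 were whole numbers of reads to within 0.005 RPM at a total of 2923785 reads. On this scale chloroplast Leu(CAA) had 263405 reads, with an exact 95% Poisson interval of 89747 to 90435 RPM. Chloroplast Leu(TAA) had 162491 reads (55306 to 55846 RPM), and mixed Leu(TAG) had 26670 reads (9013 to 9232 RPM). The 3 intervals did not overlap, and they cover counting error only.

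The nuclear leucine tRNAs were listed at a few reads or at 0 in the same library. Nuclear Leu(TAA) was the highest at 3.42 RPM, or 10 reads, with an exact 95% Poisson interval of 1.64 to 6.29 RPM. Nuclear Leu(CAA) was at 2.74 RPM, or 8 reads (1.18 to 5.39 RPM). Nuclear Leu(AAG), the leucine isodecoder with the most genes, was at 1.37 RPM, or 4 reads (0.373 to 3.5 RPM), and Leu(GAG) had the same value. Nuclear Leu(TAG) was at 0.68 RPM, or 2 reads (0.0828 to 2.47 RPM). The intervals of these 5 nuclear isodecoders all overlapped, so their order was not resolved at this depth. Nuclear Leu(CAG), Leu(AAG)1 and Leu(TAA)1 were listed at 0. All 3 nuclear alanine isodecoders, which every cell needs, were also listed at 0 in this library, and no limit is derived from the leucine zeros.

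**Figure D1:**
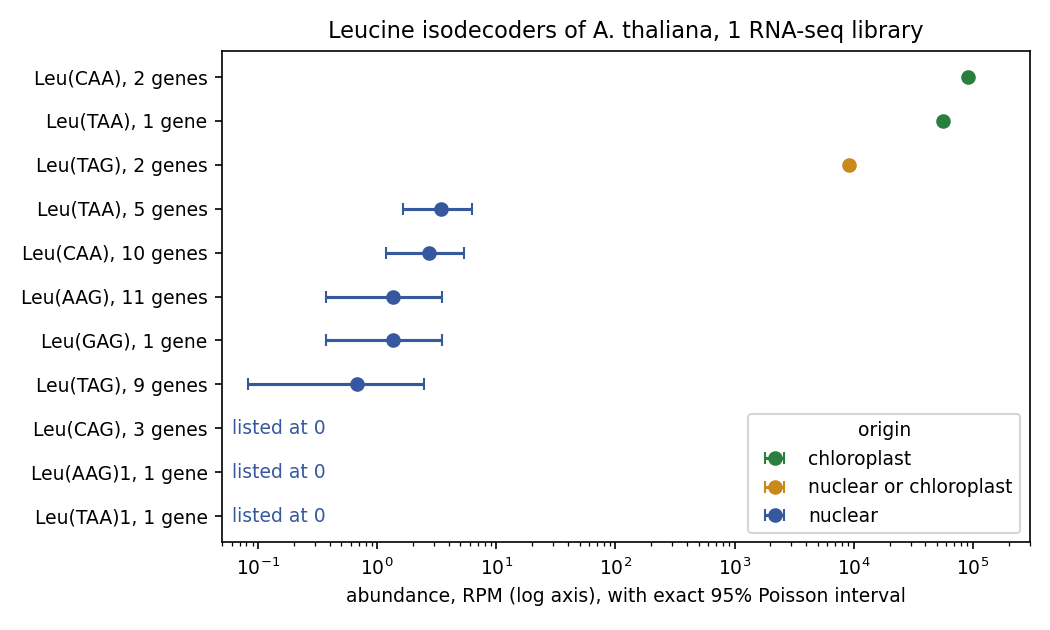
Abundance of the 11 leucine isodecoders in 1 RNA-seq library of A. thaliana, on a log axis in RPM. Points are the listed values, bars are exact 95% Poisson intervals on the recovered reads, colours give the origin, and labels give the number of listed genes. The chloroplast and mixed isodecoders lie between 9122 and 90090 RPM, and no nuclear isodecoder is above 3.42 RPM.

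Added up, leucine isodecoders held 78.1% of all tRNA RPM (95% exact binomial interval 78.0 to 78.2%) with 6.7% of the listed tRNA genes. Within leucine, the 2 chloroplast isodecoders held 94.1% of the RPM (94.0 to 94.2%), the mixed isodecoder held 5.89%, and the 8 nuclear isodecoders held 0.00619%. The shares of leucine genes ran the other way, with 6.52% of the genes in the chloroplast isodecoders, 4.35% in the mixed isodecoder and 89.1% in the nuclear isodecoders. Dividing each RPM by the length of its consensus sequence left 76.7% of the sum with leucine. Per base, chloroplast Leu(CAA) was at 1112 RPM, chloroplast Leu(TAA) at 654 RPM and mixed Leu(TAG) at 114 RPM, and the nuclear leucine isodecoders above 0 were between 0.0085 and 0.0412 RPM.

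Leucine was set against the other tRNAs of the same origin. The median over the 2 chloroplast leucine isodecoders was 72800 RPM, and that over the other 22 chloroplast isodecoders was 55.1 RPM. The 2 leucine isodecoders held 82.3% of chloroplast tRNA RPM with 10.0% of the chloroplast genes. The median over the 8 nuclear leucine isodecoders was 1.03 RPM, and that over the other 50 nuclear isodecoders was 2.74 RPM. The leucine value depended on the setting. It was 3.08 RPM over the 2 isodecoders with at least 5 reads, 2.06 RPM over the 4 above 1 RPM, and 0.5 RPM as a geometric mean with a pseudocount of 0.1 RPM, where the same settings gave 3.76, 3.76 and 2.18 RPM for the other nuclear isodecoders. The 8 leucine isodecoders held 28 of 3743 nuclear reads, or 0.748% of nuclear tRNA RPM, with 6.7% of the nuclear genes. Of 22 nuclear families, with initiator and elongator methionine and the undetermined isodecoder apart, leucine ranked 4 by gene number, 12 by RPM and 14 by RPM per gene. Serine, whose tRNAs also have long variable arms, was close to it, with 10.94 RPM from 61 nuclear genes, or 0.179 RPM per gene, where leucine had 0.234 RPM per gene. Families without long variable arms were closer still, such as threonine at 10.26 RPM and, per gene, asparagine at 0.251 RPM. The likeness was therefore not particular to tRNAs with long variable arms.

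Within the same anticodon, the chloroplast or mixed isodecoder was far above its nuclear partner in RPM. The intervals given here cover counting error only, and how well the library recovered each sequence was not measured. Leu(CAA) gave a log2 ratio of chloroplast over nuclear RPM of 15.01 (95% interval from the exact binomial 14.03 to 16.22), a ratio of 32926. For Leu(TAA) the log2 ratio was 13.99 (13.11 to 15.05), a ratio of 16249. For Leu(TAG), with 2 nuclear reads, mixed over nuclear gave 13.70 (11.85 to 16.75), a ratio of 13335 with an interval from 3691 to 110117. Isodecoders were paired by name, so initiator and elongator methionine, which share CAT, counted apart. Isodecoders that could be of any of the genomes were left out. Of the 18 pairs with a ratio, 17 (94.4%) were higher in the chloroplast or mixed isodecoder. The direction was therefore that of nearly all of them. The 3 leucine ratios were the largest of the 18. The other 15 had a median log2 ratio of 3.95 and ranged from -1.17 for Met-e(CAT) to 12.05 for Tyr(GTA). Their order was not fully resolved, since the interval of Tyr(GTA), whose nuclear value was 1 read, overlapped all 3 leucine intervals and that of Met-i(CAT) overlapped the interval of Leu(TAG). Per listed gene copy the leucine log2 ratios were 17.33 for Leu(CAA), 16.31 for Leu(TAA) and 15.87 for Leu(TAG), and Tyr(GTA), at 17.18, then lay above 2 of them.

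**Figure D2:**
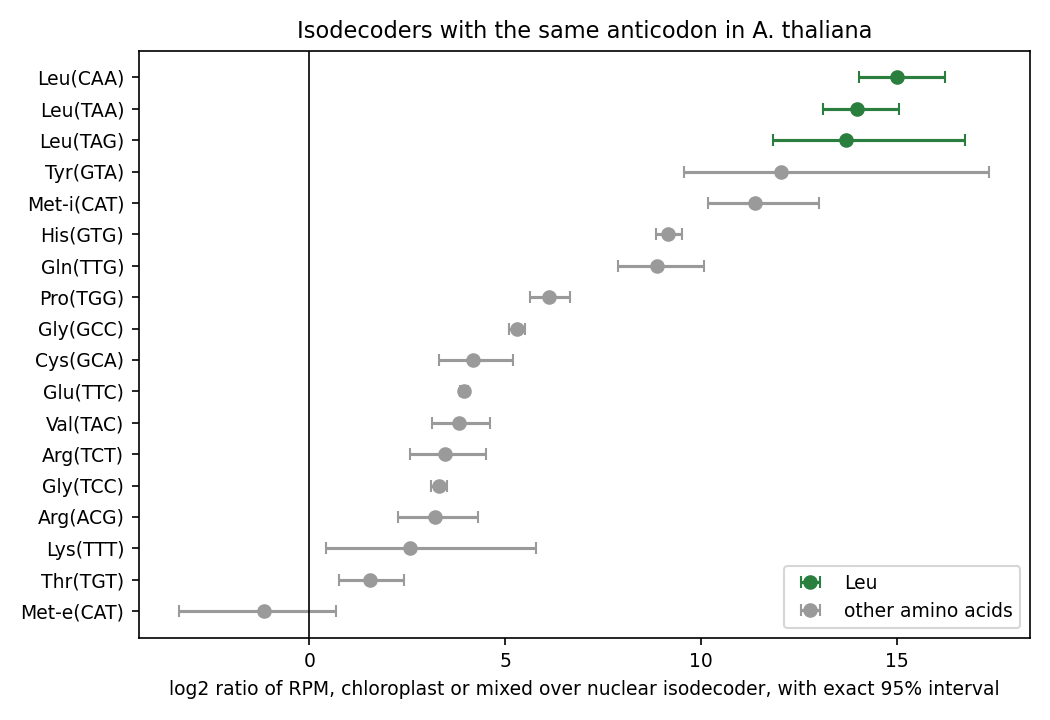
Log2 ratio of RPM, chloroplast or mixed over nuclear, for the 18 same-name pairs with reads in both isodecoders in the A. thaliana library. Points are ratios, bars are 95% intervals from the exact binomial, and the vertical line marks equal RPM. The 3 leucine pairs (green) lie at 13.70 to 15.01, and the other 15 (grey) have a median of 3.95.

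Gene number and abundance were set against each other among the nuclear isodecoders. The nuclear leucine genes numbered 11 for Leu(AAG), 10 for Leu(CAA), 9 for Leu(TAG), 5 for Leu(TAA), 3 for Leu(CAG) and 1 each for Leu(GAG), Leu(AAG)1 and Leu(TAA)1. Leu(AAG), with the most genes, was listed below Leu(TAA), but their intervals overlapped and the order was not resolved. Leu(TAG), with 9 genes, had 2 reads. Over the 8 nuclear leucine isodecoders, Spearman's rho of RPM with gene number was 0.55, and over the other 50 nuclear isodecoders it was 0.48. These describe isodecoders that share 1 library. RPM per listed gene was 55576 for chloroplast Leu(TAA), 45045 for chloroplast Leu(CAA) and 4561 for mixed Leu(TAG), and between 0.0756 and 1.37 for the nuclear isodecoders above 0. Chloroplast Leu(TAA) was therefore above chloroplast Leu(CAA) per gene and below it in total. The highest nuclear value per gene was that of Leu(GAG), whose only gene carries a pseudogene biotype (below). The next was 0.684 for nuclear Leu(TAA). Genes are counted once per genome, and the number of chloroplast genomes per cell was not measured.

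The genes lay as follows in TAIR10. Chloroplast Leu(CAA) is encoded by AtCg00880 (chloroplast 94276 to 94356) and AtCg01260 (144293 to 144373), whose nearest listed tRNA genes, both Val(GAC), lie 6352 bases away in each case. Chloroplast Leu(TAA) is encoded by AtCg00400 (46894 to 47490), whose span of 597 bases is 512 longer than its 85-base consensus. This gene is known in land plants for its group I intron. Mixed Leu(TAG) is encoded by AtCg01030 (114270 to 114349) and by At4g08345 on chromosome 4 (5268128 to 5268213), whose span is 6 bases longer than the 80-base consensus. The next listed tRNA gene to At4g08345 was 1378216 bases away.

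The 41 nuclear leucine genes were spread over all 5 nuclear chromosomes, and chromosomes 1 to 5 held 10, 6, 5, 7 and 13 of them in that order. Of these genes, 6 (14.6%) lay within 1000 bases of another listed tRNA gene, against 139 of the other 571 nuclear genes (24.3%), and the median distance was 33020 bases for leucine and 36626 bases for the others. The closest were At2g36510 and At2g36520, both Leu(TAA), with 68 bases between them. At4g11213, the only gene of Leu(TAA)1, lay 130 bases from At4g11216, a gene of Leu(CAA). Their 2 consensus sequences were the most similar among the leucine tRNAs, with 92.9% identity. With positions counted from 1 at the 5′ end of Leu(CAA), Leu(TAA)1 differed from it by G6T, C35T, G50T, A53C, T71C and T78G, of which C35T is the first anticodon base, structural position 34. How the reads of such similar sequences were divided is not given in the sources used here, and the 0 of Leu(TAA)1 and the 2.74 RPM of nuclear Leu(CAA) are uncertain to that extent.

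Consensus sequences were compared within and between origins. The 6 nuclear isodecoders with a long variable region were 66.7 to 92.9% identical to each other, with a median of 82.6%. The 2 chloroplast and the mixed isodecoder were 61.6 to 67.5% identical to each other. Between the chloroplast or mixed and the 6 nuclear isodecoders, identity was 49.4 to 62.8%, with a median of 56.1%, so that the range overlapped the one within the chloroplast and mixed isodecoders. Chloroplast Leu(TAA) was slightly closer to Tyr(GTA)2 of nuclear or mitochondrial origin (66.3%) than to its closest leucine tRNA, chloroplast Leu(CAA) (65.2%). No same-anticodon pair of different origin was therefore near-identical in the reference.

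The variable region, the bases between the anticodon stem and the T stem, was 11 to 16 bases long in 9 of the 11 leucine isodecoders, whose consensus sequences were 80 to 85 bases long. In the 9 of 11 serine isodecoders that could be placed it was 11 to 19 bases, and in the 65 placed isodecoders of amino acids other than leucine, serine and tyrosine it was 4 to 6 bases. Tyrosine held both kinds, with 5 to 15 bases in the 4 of 5 isodecoders that could be placed and over 8 bases in 2 of them, Tyr(GTA) of nuclear or chloroplast origin (15 bases) and Tyr(GTA)2 (14 bases). The exceptions among leucine were Leu(AAG)1, with 5 bases, and Leu(GAG), with 4 bases, both 72 bases long. These 2 nuclear isodecoders, each with 1 gene, therefore go against the leucine label in this feature. They were 49.4 to 58.5% identical to the 6 nuclear leucine isodecoders with a long variable region.

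**Figure D3:**
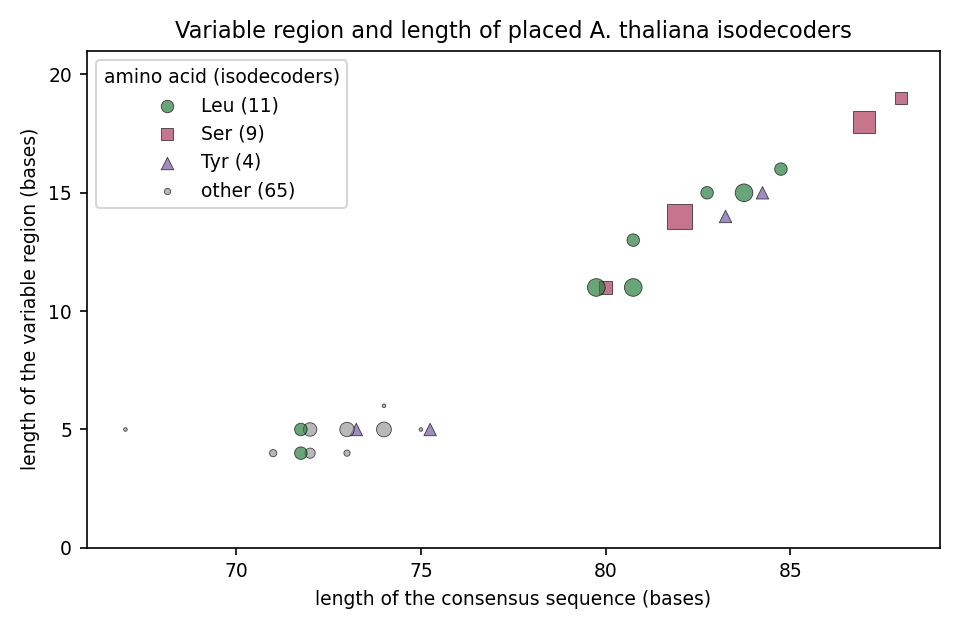
Length of the variable region against the length of the consensus sequence, both in bases, for the placed A. thaliana isodecoders. Symbol area grows with the number of isodecoders at a point, on a smaller scale for the other amino acids, and Leu and Tyr symbols are shifted slightly sideways. The 9 long leucine isodecoders lie at 11 to 16 bases, with serine and 2 tyrosine isodecoders at 11 to 19 bases, and the 2 short ones at 4 and 5 bases with the other amino acids.

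Each of the short leucine isodecoders was nearest to a tRNA of another amino acid. Leu(AAG)1 matched nuclear Pro(AGG) at 68 of 72 bases (94.4%), and its closest leucine tRNA at 62.7%. Leu(GAG) matched nuclear His(GTG) at 60 of 72 bases (83.3%), and its closest leucine tRNA, which was Leu(AAG)1 itself, at 62.7%. The pairs are shown with the bases that differ in capitals, so that the difference in the anticodon can be read off. Descent of one from the other was not tested.
Leu(AAG)1 nuclear: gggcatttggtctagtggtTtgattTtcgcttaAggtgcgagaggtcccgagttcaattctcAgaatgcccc
Pro(AGG) nuclear: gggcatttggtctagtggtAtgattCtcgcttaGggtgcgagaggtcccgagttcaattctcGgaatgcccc
Leu(GAG) nuclear: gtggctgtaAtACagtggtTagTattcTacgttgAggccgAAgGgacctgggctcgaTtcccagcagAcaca
His(GTG) nuclear: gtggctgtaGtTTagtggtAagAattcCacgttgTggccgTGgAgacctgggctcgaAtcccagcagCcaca
Counted from 1 at the 5′ end of the proline sequence, Leu(AAG)1 differed by A20T, C26T, G34A and G63A, and G34A lies in the anticodon. Leu(GAG) differed from the histidine sequence at 12 bases, and T35A lies in the anticodon. Both genes, At1g45236 on chromosome 1 (17157360 to 17157431) and At2g21760 on chromosome 2 (9284034 to 9284105), carry the biotype pseudogene in a RefSeq gene table, while all 39 nuclear leucine genes with a long variable region carry the biotype tRNA. Of the 589 matched genes other than leucine, 6 (1.02%) were pseudogenes. At1g45236 lay 681 bases from At1g45234, a Pro(TGG) gene. Leu(GAG) had 4 reads and Leu(AAG)1 was listed at 0. How reads were divided between each and its near match is not given in the sources used here. Both values are uncertain to that extent.

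The T arm of nuclear tRNA genes also serves as the B box, an internal promoter element bound by the RNA polymerase III factor TFIIIC, and 2 versions of its letters were searched on both strands. GGTTCGA was found in 1 of the 6 nuclear leucine isodecoders with a long variable region, Leu(TAA), against 31 of 50 other nuclear isodecoders (62.0%). GGTTCAA, with A in place of G, was found in the other 5 of 6, against 2 of 50 other nuclear isodecoders (4.0%). Thr(CGT)1, which was 79.8% identical to nuclear Leu(CAA), was among these 2. The 2 short leucine isodecoders had neither. Chloroplast Leu(CAA) and mixed Leu(TAG) had the motif with G, and chloroplast Leu(TAA) the motif with A. Over all 100 sequences the motif with G was found in 58 and the motif with A in 20. The motifs exclude each other at the same place, and on the opposite strand the motif with G occurred in 7 sequences and the motif with A in 0. A match is a description of letters and not of binding.

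Methylation was recorded for 5 leucine sites in 6 species, which gave 12 values and 18 cells that were not determined. Of the 12 values, 9 (75.0%) were at 20% methylated or more, the study's threshold for a methylated site, against 186 of 223 values of the whole table (83.4%). The table lists only sites that reached the threshold in at least 1 species, so these shares are high by construction. All 8 nuclear leucine values were at the threshold, with a range of 20 to 89%, against 89.9% of the nuclear values of the table. C. taxifolia and N. oculata had no leucine value, although they had values at 26 and 27 of the 59 sites. A species with no value at a site may have had no reads there, and the read number behind each percentage is unknown beyond the authors' minimum.

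The nuclear sites lay at C48 in 3 isodecoders and at C34 in 1. Nuclear Leu(TAA) was 71.5% methylated at C48 in A. thaliana, as the authors' mean, and 80% in B. rapa. Nuclear Leu(CAG) was 88% methylated at C48 in B. rapa and 86% in T. durum. This isodecoder was listed at 0 in the A. thaliana abundance library and had no methylation value in A. thaliana. Nuclear Leu(CAA) was 75% methylated at C48 in B. rapa and 60% in G. biloba. Nuclear Leu(CAA) had no methylation value in A. thaliana, where its abundance rested on 8 reads. The only nuclear leucine isodecoder with a value in A. thaliana, Leu(TAA), was the one listed with the most nuclear leucine RPM, in an order that was not resolved.

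All 6 C48 values of leucine were at the threshold, against 86.9% of all nuclear C48 values. The leucine values had a median of 77.5% and a range of 60 to 88%. The 78 C48 values of other nuclear tRNAs had a median of 76.5% and ranged from 0 to 100%, and the 17 values of serine had a median of 85% and a range of 40 to 100%. Within species, leucine C48 ranked 12 of 18 in A. thaliana, 4, 9 and 12 of 19 in B. rapa, 9 of 17 in T. durum and 8 of 13 in G. biloba. Leucine C48 thus lay within the spread of the other tRNAs in each of these species.

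C34, the first base of the anticodon, was listed for nuclear Leu(CAA) and for no other of the 59 sites. It was 89% methylated in B. rapa and 20% in G. biloba, which is at the threshold. At C48 of the same tRNA the same species gave 75% and 60%. Over the 29 nuclear sites with a value in both species, the difference of B. rapa minus G. biloba was 69 points at C34, the largest, and 15 points at C48, and over the 27 sites that were not leucine it had a median of 1 point and ranged from -45 to 60 points. In the A. thaliana reference a cytosine at position 34 was also present in chloroplast Leu(CAA), in nuclear Leu(CAG), in 16 of 44 other placed nuclear isodecoders (36.4%) and in 3 of 19 other placed chloroplast isodecoders (15.8%). None of these is listed at C34.

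The chloroplast isodecoders Leu(CAA) and Leu(TAA), the most abundant tRNAs of the library, were not listed in the methylation table. Their consensus sequences have T at position 48 and G at position 49, so neither position holds a cytosine, while chloroplast Leu(CAA) does have one at position 34. A cytosine at position 48 was present in none of the 3 chloroplast or mixed leucine isodecoders, against 16 of 19 other placed chloroplast isodecoders (84.2%). It was present in all 6 nuclear leucine isodecoders with a long variable region, against 37 of 44 other placed nuclear isodecoders (84.1%). The only chloroplast sites listed at C48 were those of Glu(TTC), through T. durum, and Met-i(CAT), through N. oculata. Most chloroplast isodecoders with C48 were therefore unlisted as well. The paper reports that no chloroplast tRNA was methylated in A. thaliana. Why the chloroplast leucine isodecoders were unlisted was not tested. In all, chloroplast Leu(CAA) has 17 cytosines and chloroplast Leu(TAA) has 18. Nuclear Leu(AAG), Leu(TAG), Leu(TAA)1, Leu(GAG) and Leu(AAG)1 were not listed either, though each has C48.

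Mixed Leu(TAG) was the only leucine tRNA of the chloroplast genome with a listed site, and it differed from the nuclear sites both in position and across species. At C49 it was 0% methylated in A. thaliana, B. rapa and G. biloba and 92% methylated in T. durum. In the A. thaliana reference, mixed Leu(TAG) holds T at position 48 and C at position 49, where the nuclear leucine tRNAs with a long variable region hold C and G. The T. durum sequence and its genome of origin were not examined. Of all 25 values at sites of other than purely nuclear origin, 8 (32.0%) were at the threshold. Each of these sites reached the threshold in 1 species only, so 8 is the lowest count that the listing rule allows and not a measured rate. Of the 29 sites outside leucine with values in at least 4 of the same species, the most similar were chloroplast Glu(TTC) C48, with a mean absolute difference of 0.5 points over 4 species and 90% in T. durum, and chloroplast Cys(GCA) C49, with 0.75 points and 89% in T. durum. Both were at 0% in the other species with a value. Like mixed Leu(TAG) C49, both are listed through T. durum alone, so part of this likeness follows from the listing rule. The third, nuclear Glu(CTC) C48, was already 18.5 points away, with 40% in T. durum and 22% in G. biloba.

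**Figure D4:**
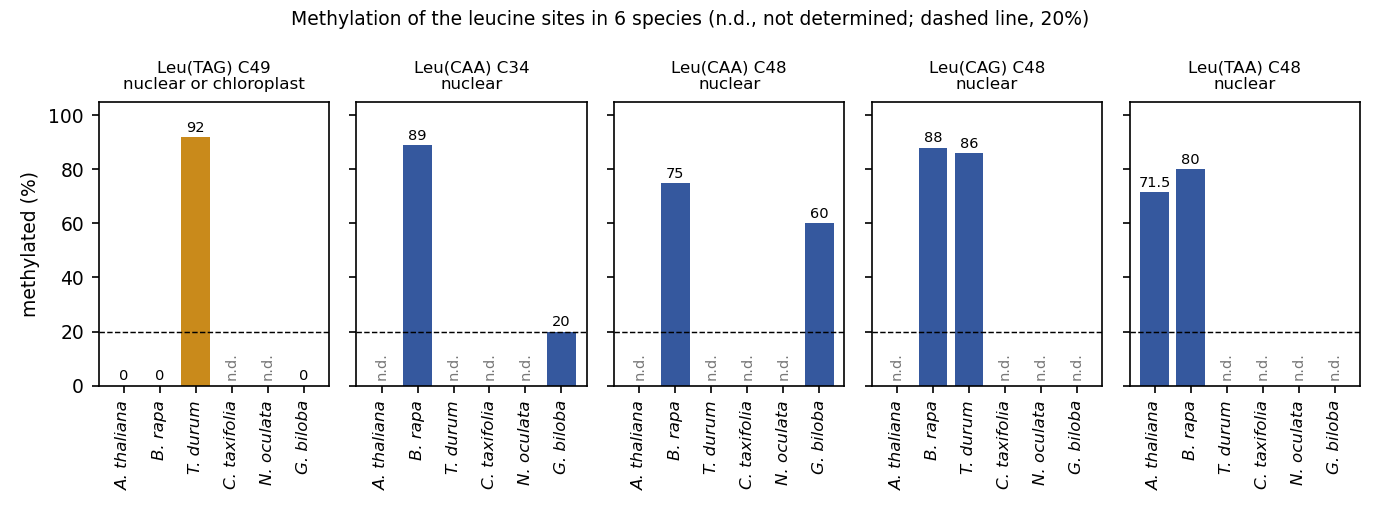
Percent methylated at the 5 leucine sites in 6 species, with the mixed isodecoder at the left and the nuclear ones after it. Bars are single deposited values (for A. thaliana the authors' mean), n.d. marks cells that were not determined, and the dashed line is 20%. The nuclear C48 values lie between 60 and 88%, and the mixed C49 value is 92% in T. durum and 0 in the other 3 species with a value.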

How the data were processed

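Reads were trimmed by the authors, and those of A. thaliana were aligned to its 100 consensus sequences. For the other species, the authors used this list together with tRNAs from the PlantRNA Database, taken from the nearest related plant it covered. Abundance was deposited as RPM with 2 decimals. Methylation was deposited in percent, computed by the authors as cytosines over cytosines plus thymines among reads aligned to converted sequences, with at least 5 reads per position. The reference list was deposited with TAIR10 coordinates. Whether reads that fit several sequences were shared is not given in the sources used here. The 14 libraries (8 RBS-seq, 6 RNA-seq) were grouped by species and assay, and abundance was deposited for A. thaliana.

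Reads were recovered from the RPM steps at a total of 2923785 reads, of which 579400 fell on tRNAs. Intervals are exact 95% Poisson or binomial intervals. No p-value was computed, since the tables give no replicates, and Dixon's ratio over species served only to pick a value to describe. Identity is matches over columns of a global alignment (match 1, mismatch -1, gap -2). Positions 48 to 73 were counted from the 3′ end and the anticodon was placed by its stem of at least 4 pairs, and a variable region over 8 bases was called long. Of the 46 leucine loci, 42 were found in a RefSeq gene table (TAIR10.1), which was used for names and biotypes. The scripts were tested on simulated data and ran in Python 3.11.15 with NumPy 2.4.6, SciPy 1.17.1 and Matplotlib 3.10.9. The members and lists were chosen with earlier results of these data known. All leucine isodecoders are named, and of other tRNAs the closest sequence to a leucine isodecoder of different variable region length and the 3 sites most like a leucine site over at least 4 species. Met-e(CAT), Met-i(CAT), Tyr(GTA), Tyr(GTA)2, Thr(CGT)1, the family comparisons and the difference of B. rapa minus G. biloba were chosen after their values were seen.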

Additional observations from a re-analysis of the deposited data

Results flagged for a closer look

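Mixed Leu(TAG) C49 was 92% methylated in T. durum and 0% in A. thaliana, B. rapa and G. biloba, so the gap from T. durum to the nearest other species was the whole range of the 4 values. It is given as a value far from the others by Dixon's ratio, which is 1 whenever the other 3 are tied, and not as a test. The table lists only sites that reach 20% in at least 1 species, so this site is listed through T. durum alone and the usual chance rate of about 1 in 20 groups does not apply to it. The values are 1 per species and not replicates. No other leucine site had 4 values.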

How the results depend on the processing

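Of 24 alternatives tried over 9 results, 7 moved a value beyond its counting interval or spread. A sign could change only for the log2 ratios and for the correlation with gene number, and none did. Counts, shares and medians are never negative, so nothing follows for their direction. Counting the mixed isodecoder as chloroplast moved the share of leucine RPM held by chloroplast isodecoders to 99.99381%, and leaving out chloroplast Leu(CAA), the most abundant, moved it to 85.9%. Leaving out the same isodecoder moved the leucine share of tRNA RPM to 59.9%, and dividing RPM by length moved it to 76.7%. The median RPM of nuclear leucine isodecoders was 3.08 among those with at least 5 reads. Applying each setting to the other nuclear isodecoders too was chosen after seeing the data. Per listed gene copy the log2 ratio was 17.33 for Leu(CAA) and 16.31 for Leu(TAA). At a threshold of 30% or 40%, 8 leucine values counted as methylated in place of 9. Replicates could not be left out because the A. thaliana methylation values are deposited as a mean and abundance has 1 library. No paired analysis was possible because no replicate values are given in the tables. Adding numbered variants gave no value for Leu(CAA) and Leu(TAG), which have none. The nuclear leucine values rest on 28 reads in all, and the depth behind each percentage is unknown.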

Other observations

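A nuclear tRNA outside the leucine names was close to a leucine sequence, a comparison chosen after its values were seen. Thr(CGT)1, with the single gene At2g34985 on chromosome 2 (14750064 to 14750134, TAIR10), was 79.8% identical to nuclear Leu(CAA) and 49.3% identical to nuclear Thr(CGT). It was listed at 0 RPM. Of its 71 bases, 66 matched Leu(CAA) when a run of 13 bases of Leu(CAA), in capitals here, was left without a partner.
Thr(CGT)1 nuclear: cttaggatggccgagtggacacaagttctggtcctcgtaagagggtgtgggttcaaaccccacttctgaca
Leu(CAA) nuclear: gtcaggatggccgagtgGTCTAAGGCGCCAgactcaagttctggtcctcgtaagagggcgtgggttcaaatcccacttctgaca
The letters CGT occur in Thr(CGT)1 once, at bases 36 to 38. In Leu(CAA) the same stretch has CGT at bases 49 to 51, inside its variable region of bases 45 to 59.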
